A study of Mus musculus with 12 samples.

Results

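Wild-type natural killer (NK) cell preparations from spleens of C57BL/6 mice challenged with Listeria were compared with preparations from unchallenged wild-type mice across every gene with enough counts to test. The members were the 6 wild-type libraries of the series, 3 challenged (replicates 1, 2 and 3) and 3 unchallenged (replicates 2, 3 and 4), of 12 libraries in all. The other 6 libraries came from Mirc11-/- mice of the same strain, which lack a microRNA cluster, and entered the fit to estimate the spread between libraries. No wild-type library carried an engineered allele according to the labels. Per the labels, NK cells were isolated negatively, a method that removes other cells and leaves NK cells untouched, with Trizol extraction and Illumina TruSeq RNA library preparation. How much Listeria was given, by which route and for how long, is not stated in the labels, and it is also unstated whether the libraries represent different animals. Spread between libraries, and any p-value built on it, may thus be partly technical.

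NK cells are lymphocytes that kill infected cells by releasing perforin and granzymes and that secrete interferon gamma, which arms macrophages. Listeria is a bacterium that grows in the cytosol of host cells, and early control of it in the spleen depends on interferon gamma, neutrophils and monocytes. Interferons act through JAK kinases and STAT factors to switch on large families of target genes, many of which encode GTPases and nucleic acid sensors that restrict intracellular microbes.

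Most measured genes differed after the challenge. Of 50643 listed genes, 16694 had enough counts to test, and 10577 of those (63.4%) passed an adjusted p of 0.05 in edgeR's quasi-likelihood F test, 5411 higher (32.4%) and 5166 lower (30.9%). At least 2-fold changes numbered 2258 upward (13.5%) and 1773 downward (10.6%), and at least 16-fold changes 237 upward and 58 downward. The order of the 2-fold counts depended on scaling: upper-quartile scaling gave 2037 higher and 2140 lower, and library totals alone 2042 and 2130. The median log2 fold change over all tested genes was -0.01. All 3 challenged libraries lay above all 3 unchallenged ones for 5858 genes (35.1%) and below them for 5763 (34.5%). The typical gene differed by 0.111 to 0.169 on the log2 scale between libraries of 1 group and by 0.44 to 0.486 between the groups. Wild-type library totals ran from 18326988 to 23092597 counts. These percentages are the background against which every count below is read. Levels are counts per 1000000 (CPM) with TMM-scaled library sizes, as mean ± SD of n = 3 libraries, changes are log2 fold changes ± standard error, and values by library are in the order of the replicate numbers.

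**Figure D1:**
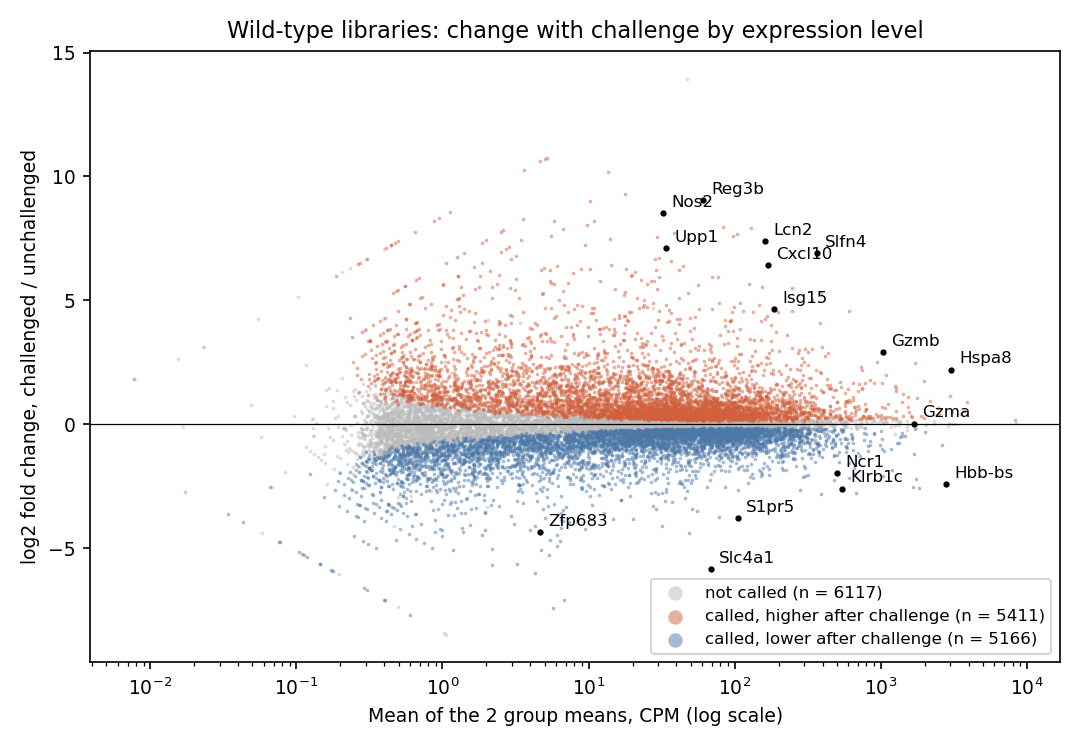
Each point is 1 of 16694 tested genes, with the mean level of the wild-type groups in CPM on the log x axis and the log2 fold change with challenge on the y axis. Orange points were called higher (5411) and blue points lower (5166), grey points were not called, values of genes at 0 in 1 group depend on the fit's prior count, and rises such as Reg3b at 9.06 extend further from 0 than falls such as Slc4a1 at -5.84.

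Calls depended on expression level and gene class. Among genes under 1 CPM in the higher group, 12.4% rose and 18.6% fell, against 40.6% and 36% of genes over 100 CPM, where the median standard error was 0.0729 instead of 0.464. Protein-coding genes rose in 35.9% and fell in 30.6% of 13600 cases. Long noncoding RNAs went the other way, with 11.4% higher and 37.2% lower of 2202, at a median level of 1.51 CPM. Immunoglobulin and T cell receptor segments were called higher in 159 of 232 cases.

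A single unchallenged library stood apart. Ddx3y, a Y-linked helicase gene, was at 0.0534, 0.0995 and 34.1 CPM in unchallenged replicates 2, 3 and 4 and at 0.0457, 0.1401 and 0 CPM in the challenged libraries, and Xist, the X-inactivation RNA, was at 1981, 1691 and 1179 CPM against 1544, 1434 and 1211 CPM. Replicate 4 therefore held Y-linked RNA together with Xist. Eif2s3y, Kdm5d and Ddx3y were called lower with challenge, and without that library 1 of the 6 sex-linked transcripts was, namely Kdm5d at -1.41, with Ddx3y at -0.30 and Eif2s3y at 0 counts in the other two unchallenged libraries. Leaving out any challenged library also ended the 3 calls. Over all genes, leaving it out gave 5063 higher and 4721 lower calls.

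Markers of several cell types moved together with the groups, and their part in the results below was not tested. In bulk RNA, fewer cells of a type and less RNA per cell cannot be told apart. Summed over 15 NK cell markers, the level was 8026 to 9178 CPM without challenge and 4806 to 4896 CPM after it, and no marker of the list was at 0 in either group. The 15 T cell markers summed to 789 to 822 CPM without challenge and 476 to 488 CPM after it. The 15 B cell markers summed to 4901 to 5720.5 CPM without challenge and 7737 to 8259 CPM after it. Neutrophil granule genes summed to 305 to 321 CPM without challenge and 2779 to 3319 CPM after it, and erythroid markers to 11937 to 13768 CPM without challenge and 2326 to 2893 CPM after it. The NK sum thus fell by less than the red-cell sum, and the neutrophil and B cell sums were higher in every challenged library. Abundant genes dominate such sums. The NK sum includes Gzma, which was not called, and haemoglobin genes made up most of the red-cell sum. By gene, 13 of 15 NK markers fell (median -1.29) and 11 of 17 erythroid markers fell (median -2.53).

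**Figure D2:**
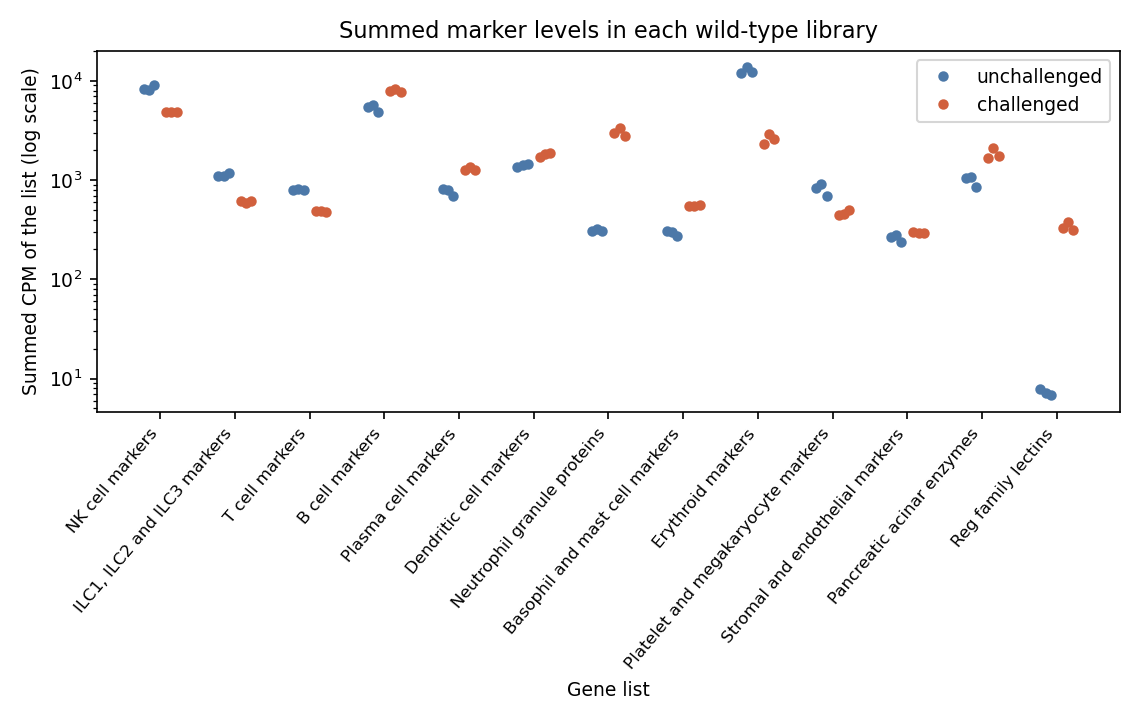
Points are the 6 wild-type libraries, with the summed CPM of each marker list on the log y axis and the lists on the x axis. NK, T cell, erythroid and platelet sums were lower in every challenged library than in every unchallenged one, and B cell, neutrophil and Reg lectin sums were higher.

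Most genes of the interferon target families rose, and short stretches upstream of their genes are shown because they hold the element through which interferon-activated STAT and IRF factors are known to bind. The interferon-stimulated response element was searched as GAAANNGAAA on both strands in the 250 bases before each RefSeq start (GRCm38.p6), where overlapping matches were counted and a match is only a match of letters. It occurred in 9 of 12 IFIT and OAS genes with a window, in 5 of 5 guanylate-binding protein genes and in 5 of 7 immunity-related GTPase genes. The share was lower in the other antiviral effector genes, Isg15 among them, at 8 of 28. Of 11133 tested genes with a window, 3.55% held it. Among genes that rose at least 4-fold the share was 9.77%, and among those called lower 2.46%. Genes on 1 chromosome were left out of the choice of stretches to print. The 5 stretches below belong to the interferon genes with the largest rises among the others with a match. Each is written 5′ to 3′ on the strand of its gene, and capitals mark the element.
Gbp2b, chr3:142594695-142594734, plus strand: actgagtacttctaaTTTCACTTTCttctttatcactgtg
Tgtp1, chr11:48992299-48992338, minus strand: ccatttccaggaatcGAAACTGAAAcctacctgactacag
Isg15, chr4:156200860-156200911, minus strand: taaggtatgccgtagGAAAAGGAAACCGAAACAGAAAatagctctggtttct
Ifit3b, chr19:34607754-34607827, plus strand: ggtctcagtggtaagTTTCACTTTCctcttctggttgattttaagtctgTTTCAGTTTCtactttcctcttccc
Oas1g, chr5:120887614-120887646, minus strand: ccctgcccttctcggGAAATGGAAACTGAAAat
Isg15 held 3 overlapping matches, Ifit3b and Oas1g held 2 each, and Gbp2b and Tgtp1 held 1. The gamma-activated site, searched as TTCNNNGAA, was found in 4 of 7 immunity-related GTPase genes and 2 of 5 guanylate-binding protein genes. It was in 2 of 12 IFIT and OAS genes and 5 of 28 other antiviral effector genes, against 7.42% of all windows.

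Isg15, which encodes a ubiquitin-like modifier, was at 14.1, 13.9 and 15.2 CPM in the unchallenged libraries and at 336, 373 and 372 CPM in the challenged ones (log2 4.64 ± 0.12, adjusted p = 3.25e-13). Gbp2b was near the detection limit at 0.1602, 0.348 and 0.1500 CPM and reached 12.01, 11.8 and 10.6 CPM (log2 5.66 ± 0.29). Tgtp1, a GTPase of the immunity-related family, went from 20.02 ± 1.902 to 662 ± 29.8 CPM (log2 5.05 ± 0.11), although reads of Tgtp1 and its near-copy Tgtp2 may be split uncertainly. No challenged library overlapped an unchallenged one for any of these. Ifit3b, whose protein family binds foreign RNA ends, rose from 2.78 ± 0.3299 to 68.5 ± 3.19 CPM, and Oas1g, of the oligoadenylate synthetase family, from 1.62 ± 0.2600 to 33.7 ± 3.504 CPM. Counts among near-identical members of these families are uncertain in the same way.

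All 11 tested guanylate-binding protein genes, which encode GTPases that coat microbes and their vacuoles, rose (median 3.05), from 0.67 for Gbp8 to 5.66 for Gbp2b. Of 11 immunity-related GTPase genes, 9 rose and Irgq, a distant member, fell slightly (-0.3 ± 0.08). Iigp1, which acts at pathogen vacuoles, rose from 6.49 ± 0.704 to 301 ± 28.3 CPM. In the IFIT and OAS families 13 of 15 rose (median 3.60). Oas1c was among the 2 that fell (-0.44 ± 0.11), and the other fell further (-0.86). All 36 other antiviral effector genes rose (median 2.08), with Ifitm3, a membrane protein that blocks viral entry, going from 20.6 ± 1.65 to 335 ± 22.9 CPM. Among 8 Schlafen genes, Slfn4 stood out with a change from 6.07 ± 0.636 to 726 ± 111 CPM (log2 6.9 ± 0.19), while the pseudogene Slfn10-ps was the one that fell (-1.17 ± 0.07).

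The factors that carry the interferon signal rose unevenly. Of 16 IRF and STAT genes, 11 rose and 2 fell. Irf7, the amplifier of type I interferon, rose from 106 ± 4.93 to 722 ± 30.2 CPM. Stat2 (2.25), Irf8 (1.41), Stat3 (1.4) and Irf1 (1.3) rose by more than Irf9 (0.71). Stat4, which relays IL-12 to Ifng in NK cells, fell by 0.21 on the log2 scale, and Irf3, a constitutive sensor factor, fell by 0.22. These small falls were fragile: without unchallenged replicate 4 Stat4 was at -0.18 and Irf3 at -0.22, neither called. Stat4 also lost its call without challenged replicate 2 (-0.15) or 3 (-0.19), and Irf3 without unchallenged replicate 3 (-0.18) or challenged replicate 1 (-0.15) or 2 (-0.22).

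Kinases and brakes of the same pathway each moved in both directions. Jak1, the kinase used by both interferon receptors, fell from 1429 ± 79.9 to 679.5 ± 27.9 CPM (log2 -1.07 ± 0.06), and Tyk2, its partner at the type I receptor, from 351 ± 23.5 to 198 ± 13.7 CPM. Jak2, which partners Jak1 at the interferon gamma receptor, rose from 173 ± 7.52 to 322 ± 15.6 CPM, and Jak3, of the common gamma chain receptors, from 190.3 ± 12.3 to 275 ± 25.6 CPM. The inhibitors Socs1 (from 11.5 ± 0.813 to 74.1 ± 9.81 CPM), Socs2 (2.04), Socs3 (1.5) and Cish (1.94) rose. Usp18, which blocks the type I receptor, rose from 15.9 ± 1.26 to 287 ± 18.4 CPM. Of the 18 genes, 8 rose and 4 fell, a count of 7 lower under upper-quartile scaling or library totals alone. Their median was -0.01, and not all that fell were kinases. At the receptors, Ifnar1 (-0.34) and Ifnar2 (-0.32) fell, and Ifngr2 rose from 17.2 ± 0.477 to 48.4 ± 1.82 CPM.

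**Figure D3:**
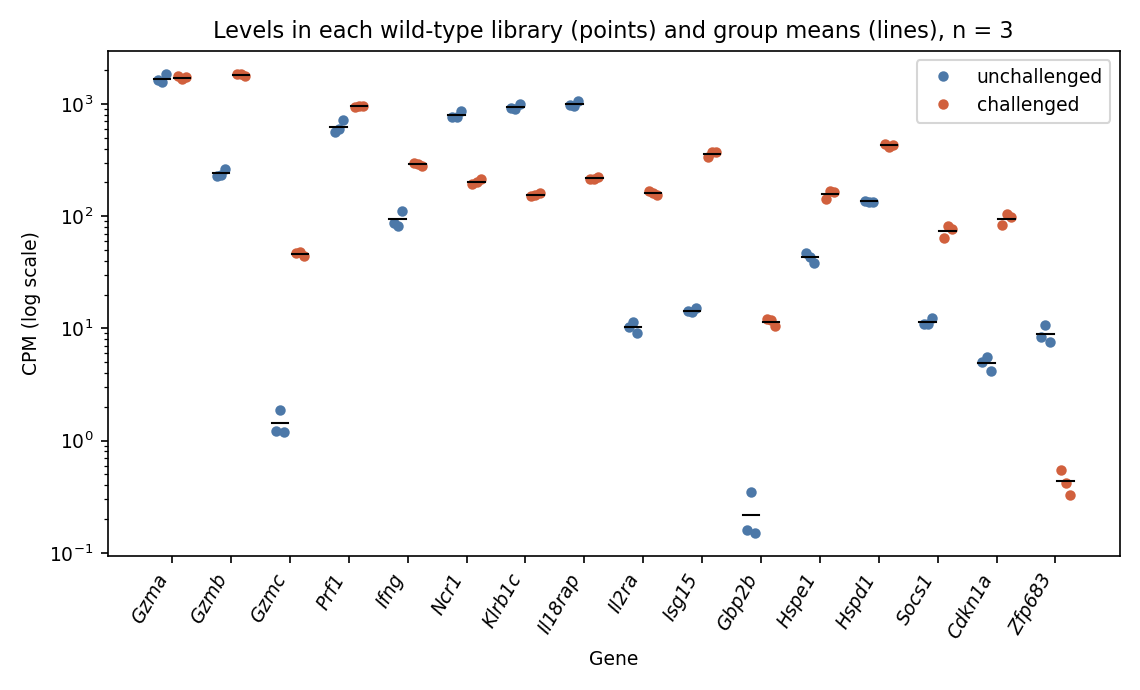
Levels of 16 genes in CPM on a log y axis, with a point per library (n = 3 per group) and a line at each group mean. The groups do not overlap for 15 of the genes, and for Gzma (1682 and 1711 CPM) they do.

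Chaperone genes rose strongly, and a stretch shared by a divergent pair of them is shown because it holds a heat shock element. Hspe1 and Hspd1 encode the subunits of the mitochondrial chaperonin and are transcribed in opposite directions from a common region. The element, searched as 3 alternating units (GAANNTTCNNGAA, both strands, overlaps counted), was found in 3 of 23 chaperone genes with a window and in 0.449% of all tested genes with one. The third gene was Dnajb6, a co-chaperone that rose slightly (0.42 ± 0.07). Of genes with a window, the element was in 0.559% of those called higher and 0.286% of those called lower. Among genes that rose at least 4-fold the share was 0.331%. Capitals mark the matches, and the same bases are read from either strand.
Hspe1, chr1:55088044-55088091, plus strand: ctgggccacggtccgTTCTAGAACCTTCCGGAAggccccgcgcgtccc
Hspd1, chr1:55088044-55088091, minus strand: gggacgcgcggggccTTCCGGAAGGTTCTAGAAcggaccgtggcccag
Hspe1 was at 47.04, 43.6 and 38.5 CPM without challenge and 143, 166 and 163 CPM after it (log2 1.87 ± 0.09). Hspd1 was at 138, 134 and 134 CPM and 441, 415 and 428 CPM (log2 1.66 ± 0.05). The groups did not overlap for either gene of the divergent pair.

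Of 28 heat shock and chaperone genes, 25 rose (median 1.28). The inducible Hsp70 genes Hspa1a (from 1.03 ± 0.316 to 87.4 ± 9.07 CPM) and Hspa1b (from 2.49 ± 0.434 to 153 ± 11.3 CPM) changed most, with reads that may be split uncertainly between them. Hsph1, an Hsp70 nucleotide exchange factor, rose from 45.8 ± 4.73 to 293 ± 2.91 CPM, and the Hsp90 gene Hsp90aa1 from 243 ± 16.5 to 1213 ± 54.2 CPM. The 3 without a call were Dnajb4, Bag3 and Hsf1, the last of which encodes the heat shock factor itself. Among the alternatives, Bag3 was called higher without unchallenged replicate 3 (0.44) or challenged replicate 2 (0.41). Cytosolic chaperonin subunits rose as well, such as Cct3 (1.22) and Cct2 (0.68). In the endoplasmic reticulum 21 of 24 folding genes rose, Hspa5 (BiP) from 348 ± 10.3 to 1075 ± 47.9 CPM and Sdf2l1 by 1.86.

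Genes for protein turnover and synthesis rose as whole assemblies by smaller amounts. All 34 constitutive proteasome genes rose (median 0.70), with the assembly factor Pomp at 1.11 and the core subunit Psma5 at 1.17. Of 20 cytosolic tRNA synthetases 19 rose (median 0.63), and Wars, the tryptophan enzyme known as an interferon gamma target, led at 1.38 ± 0.07. Ribosome biogenesis genes rose in 29 of 30 cases (median 0.63), with the nucleolar Npm1 from 402 ± 30.5 to 769 ± 83.5 CPM. Under upper-quartile scaling, where the median log2 fold change of all genes fell by 0.107, these counts became 32, 17 and 24.

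NK receptor genes mostly fell. Ncr1, encoding the activating receptor NKp46, was at 771, 771 and 866 CPM in unchallenged and 192, 202 and 216 CPM in challenged libraries (log2 -1.98 ± 0.08, adjusted p = 2.44e-11). Klrb1c, encoding NK1.1, was at 914, 897 and 996 CPM and 151, 153 and 160.0 CPM (log2 -2.6 ± 0.06). Both genes separated the groups without overlap. Of 15 NK markers 13 fell, Prf1 rose and Gzma was not called.

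In the Ly49 family, receptors for MHC class I, 11 of 13 genes fell (median -1.61). The largest falls were Klra13-ps (-2.64), Klra14-ps (-2.27) and Klra8, the activating receptor for a viral protein (from 480.1 ± 61.7 to 110.1 ± 14.7 CPM). Klra2, a member known from myeloid cells, rose from 2.097 ± 0.355 to 16.1 ± 3.88 CPM, and Klra17 rose from 1.59 ± 0.265 to 2.64 ± 0.446 CPM, the former beside the rise in neutrophil markers given above. Without unchallenged replicate 3 Klra17 was at 0.63 and not called. Reads of these similar genes may be split uncertainly. In the NKG2 and NKR-P1 group 12 of 15 fell, with Klrc2 falling from 679 ± 122 to 97.6 ± 15.2 CPM and Klrd1, its partner CD94, changing by -1.42. Klrg1, a receptor of mature NK cells, rose from 57.9 ± 1.497 to 83.6 ± 3.68 CPM. The activating NKG2C and NKG2E genes (Klrc2 and Klrc3) changed by -2.8 ± 0.25 and -2.33 ± 0.1, and the inhibitory NKG2A gene (Klrc1) by -1.54 ± 0.23.

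Adaptors fell by different amounts. Hcst, the DAP10 adaptor of NKG2D, fell from 70.2 ± 9.36 to 14.2 ± 4.06 CPM (log2 -2.3 ± 0.19), and Tyrobp, the DAP12 adaptor, from 523 ± 56.2 to 305 ± 14.6 CPM (log2 -0.78 ± 0.08). Cd96, Cd226 and Tigit encode receptors that compete for the same ligands: Cd96 (-1.61) and Cd226 (-1.33) fell, and the inhibitory Tigit rose from 17.3 ± 1.61 to 55.9 ± 2.46 CPM (log2 1.69 ± 0.11). Of 24 activating receptors and adaptors 16 fell and 5 rose. Fcgr3, the CD16 gene shared by NK and myeloid cells, was among those that rose (0.55 ± 0.07).

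Granule genes did not follow the receptors. Gzma was at 1624, 1564 and 1857 CPM without challenge and 1762, 1651 and 1721 CPM after it (log2 0.03 ± 0.07, adjusted p = 0.775), so the groups overlapped, and its sign turned under upper-quartile scaling (-0.08). Gzmb was at 229.5, 232 and 262 CPM and 1844, 1834 and 1781 CPM, a 7.55-fold rise. Gzmc rose from 1.44 ± 0.391 to 46.3 ± 1.94 CPM, and Gzmf, at 0 counts in the unchallenged group, rose at least 34.3-fold to 1.75 ± 0.341 CPM. Gzmm fell from 10.5 ± 0.307 to 1.86 ± 0.605 CPM (log2 -2.5 ± 0.18). Called granzyme genes thus moved in both directions. Of 20 genes for granule loading and release, 10 rose and 5 fell. Srgn, the granule proteoglycan, rose from 233 ± 28.5 to 579 ± 88.9 CPM, Cd63 from 11.2 ± 0.883 to 88.2 ± 14.3 CPM and the granzyme-processing protease Ctsc from 146 ± 5.38 to 276 ± 28.7 CPM. Lyst, the lysosomal trafficking regulator, fell from 188 ± 4.904 to 141 ± 6.64 CPM, and Ctsw, an NK cell cathepsin, from 468 ± 36.7 to 138 ± 13.02 CPM. Serpinb9, the intracellular inhibitor of granzyme B, rose from 239 ± 18.98 to 669 ± 42.7 CPM.

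Of 33 NK transcription factor genes 22 fell and 4 rose (median -0.66). Zfp683, encoding Hobit, was at 8.44, 10.7 and 7.501 CPM and fell to 0.548, 0.4202 and 0.329 CPM. Eomes fell from 399 ± 34.6 to 125 ± 3.94 CPM and Tbx21, its T-box partner, from 244 ± 14.1 to 98.1 ± 5.41 CPM. Tcf7 (-1.04) and Zeb2 (-1.24), marks of opposite ends of NK maturation, both fell. Id2, which NK cells require, was measured at 448 ± 27.2 and 462 ± 44.2 CPM and was not called. Nfil3, an early NK factor, rose from 30.7 ± 3.05 to 87.03 ± 4.95 CPM, and Hif1a, the oxygen-responsive factor, from 71.4 ± 7.702 to 379.6 ± 47.1 CPM.

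Homing receptor genes moved in both directions. S1pr5, the exit receptor of NK cells, fell from 195 ± 19.3 to 14.2 ± 1.56 CPM, and Cx3cr1 (-2.34), Cxcr3 (-2.15) and S1pr1 (-1.12) fell with it. Ccr7, the lymph node homing receptor, rose from 46.8 ± 2.29 to 257 ± 10.4 CPM, Cxcr4, the marrow retention receptor, from 67.8 ± 0.553 to 214 ± 6.37 CPM, and Cxcr5, known from follicular lymphocytes, from 56.1 ± 6.01 to 154 ± 5.03 CPM. Cxcr2 (2.91) and Ccr1 (3.24) rose beside the neutrophil markers. Of 22 integrins and adhesion genes 14 fell and 4 rose. Itga4 fell from 1871 ± 128 to 514 ± 42.9 CPM, Itga2, encoding the NK marker DX5, from 182 ± 10.8 to 51.2 ± 4.29 CPM, and Itgam, CD11b, from 518 ± 32.9 to 236 ± 5.03 CPM. The fall of Itgam and Itgax (-2.24 ± 0.08), both also myeloid integrins, was opposite in sign to the neutrophil list.

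Receptors for the cytokines that drive NK cells split by chain. The IL-18 receptor genes Il18rap (972, 949 and 1054 CPM to 215, 216 and 223 CPM) and Il18r1 (-1.54 ± 0.06) fell. The IL-12 receptor genes Il12rb1 (from 45.6 ± 4.08 to 148 ± 9.496 CPM) and Il12rb2 (from 126 ± 2.87 to 233 ± 22.5 CPM) rose. Il2ra, the high-affinity IL-2 chain, rose from 10.2 ± 1.197 to 161 ± 7.03 CPM (15.8-fold), while the signalling chain Il2rb fell from 1701 ± 112 to 1241 ± 63.8 CPM and the common gamma chain Il2rg rose by 0.54. Il15ra, which presents IL-15, rose from 18.4 ± 0.903 to 66.5 ± 3.34 CPM. The decoy receptor Il1r2 and the antagonist Il1rn rose by 6.73 and 7.92, beside the rise of neutrophil transcripts. Of 32 genes 16 rose and 12 fell.

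Cytokine genes rose in 25 of 30 cases (median 2.11, unchanged with Areg and Il22, at 0 counts without challenge, set to their lower bounds). Ifng was at 87.3, 82.5 and 110.5 CPM and 298, 289.7 and 279.7 CPM, with no overlap. The anti-inflammatory Il10 rose from 0.255 ± 0.0997 to 20.1 ± 2.14 CPM, the IL-12 subunit Il12b from 0.521 ± 0.296 to 7.63 ± 0.224 CPM and the IL-27 subunits Il27 (3.25) and Ebi3 (2.87). Il17a went from 1 count over the unchallenged group to 161 (ratio 147, counting interval 25.9 to 5824), and Il17f rose from 0.138 ± 0.0657 to 1.498 ± 0.487 CPM. Il2 fell to 0.09303 ± 0.0939 CPM from 0.527 ± 0.0738.

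Chemokine genes rose in 22 of 28 cases (median 3.16, also with Ccl7 and Cxcl11 at their bounds). The neutrophil attractants Cxcl2 (from 0.658 ± 0.202 to 165 ± 26.4 CPM) and Cxcl1 (from 0.0332 ± 0.0575 to 6.87 ± 0.568 CPM), and Cxcl3, with 2 counts against 752 (ratio 342, counting interval 94.4 to 2831 at 95%, covering counting error only), were near the floor without challenge. Ccl2, the monocyte attractant, rose from 0.156 ± 0.109 to 28.02 ± 3.96 CPM. Ccl22 (from 3.78 ± 0.896 to 65.4 ± 1.59 CPM) and Ccl17 (from 0.271 ± 0.0697 to 4.597 ± 0.527 CPM), made by mature dendritic cells and macrophages, rose as well. Ccl5, an abundant NK product, fell from 1667 ± 91.7 to 395 ± 14.6 CPM, against 0.32 ± 0.06 for Xcl1 and 0.22 ± 0.13 for Ccl4, which was not called, although it was without unchallenged replicate 4 (0.39) and with a replicate block (0.39 by short name, 0.24 by title). Neutrophil and monocyte markers moved with this group, and their part in it was not tested.

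Checkpoint and costimulatory genes rose in 21 of 28 cases (median 2.07). The inhibitory ligand gene Cd274, PD-L1, was at 62.6, 61.9 and 58.6 CPM and 495, 501 and 468 CPM, and its receptor gene Pdcd1 rose from 2.13 ± 0.309 to 28.4 ± 1.98 CPM. Ctla4 (3.14), Lag3 (1.55) and Havcr2 (2.15) rose, as did the activation marker Cd69 (2.16) and Tnfrsf9, 4-1BB (1.85). Cd80 (from 1.63 ± 0.279 to 42.7 ± 2.51 CPM) and Cd86 (from 11.97 ± 1.62 to 147 ± 1.85 CPM), costimulators of antigen-presenting cells, rose beside the B cell and dendritic markers, whose sums were 1356 to 1458 CPM without challenge and 1714 to 1877 CPM after it for the dendritic list. Cd27 fell from 119 ± 7.04 to 49.8 ± 1.204 CPM and Cd28 changed by -0.88.

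Antigen presentation genes mostly rose. Of 25 class I genes 23 rose (median 1.09). B2m, the class I light chain, rose from 1871 ± 147 to 4086 ± 480.3 CPM, the peptide transporter Tap1 from 336 ± 12.6 to 802 ± 63.03 CPM and the immunoproteasome subunit Psmb9 from 137 ± 6.28 to 389 ± 54.9 CPM. The class I heavy chain H2-K1 rose by less (0.53 ± 0.09) than B2m. Mr1 (-1.37 ± 0.11) and Cd1d1 (-0.52 ± 0.08), which present metabolites and lipids to innate-like T cells, fell. In the class II pathway 14 of 15 rose (median 0.87), Cd74 from 1498 ± 99.2 to 2871 ± 51.4 CPM and its regulator Ciita by 0.62. Class II genes are markers of B and dendritic cells, whose sums rose with them.

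NF-kB feedback genes rose. Of 18 genes 12 rose and 2 fell. Nfkbia, encoding the inhibitor IkB alpha, rose from 111 ± 4.23 to 393 ± 17.7 CPM, Nfkb2 from 100.2 ± 6.596 to 347 ± 20.3 CPM, Relb by 1.56 and Bcl3 by 1.82. The kinase subunit genes Ikbkg and Ikbkb changed by -0.42 and -0.19, the latter not called without unchallenged replicate 3 (-0.16) or challenged replicate 1 (-0.15). Among AP-1 and related factors 13 of 16 rose, with Batf2, an interferon target, from 0.322 ± 0.1096 to 28.4 ± 3.14 CPM and Atf3 from 2.05 ± 0.794 to 33.6 ± 1.62 CPM. Jun rose from 253 ± 13.4 to 426 ± 23.7 CPM, and Junb was not called (-0.27 ± 0.17). Of 28 EGR, NR4A and phosphatase genes 10 rose and 6 fell, Nr4a3 from 22.4 ± 0.624 to 134 ± 8.64 CPM and Ier3 from 6.93 ± 1.24 to 55.2 ± 3.09 CPM upward, and Spry2 from 153 ± 20.6 to 51.7 ± 4.14 CPM downward. Their median of 0.08 became -0.02 under upper-quartile scaling. The MYC network shifted within itself, with 4 of 12 genes higher and 2 lower. Its median of 0.05 became -0.06 under upper-quartile scaling. Myc rose from 91.2 ± 3.29 to 204 ± 6.49 CPM. Its antagonists went apart: Mxd1 rose from 129 ± 5.34 to 596 ± 17.7 CPM, and Mxd4 fell from 245 ± 5.69 to 58.1 ± 5.32 CPM.

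**Figure D4:**
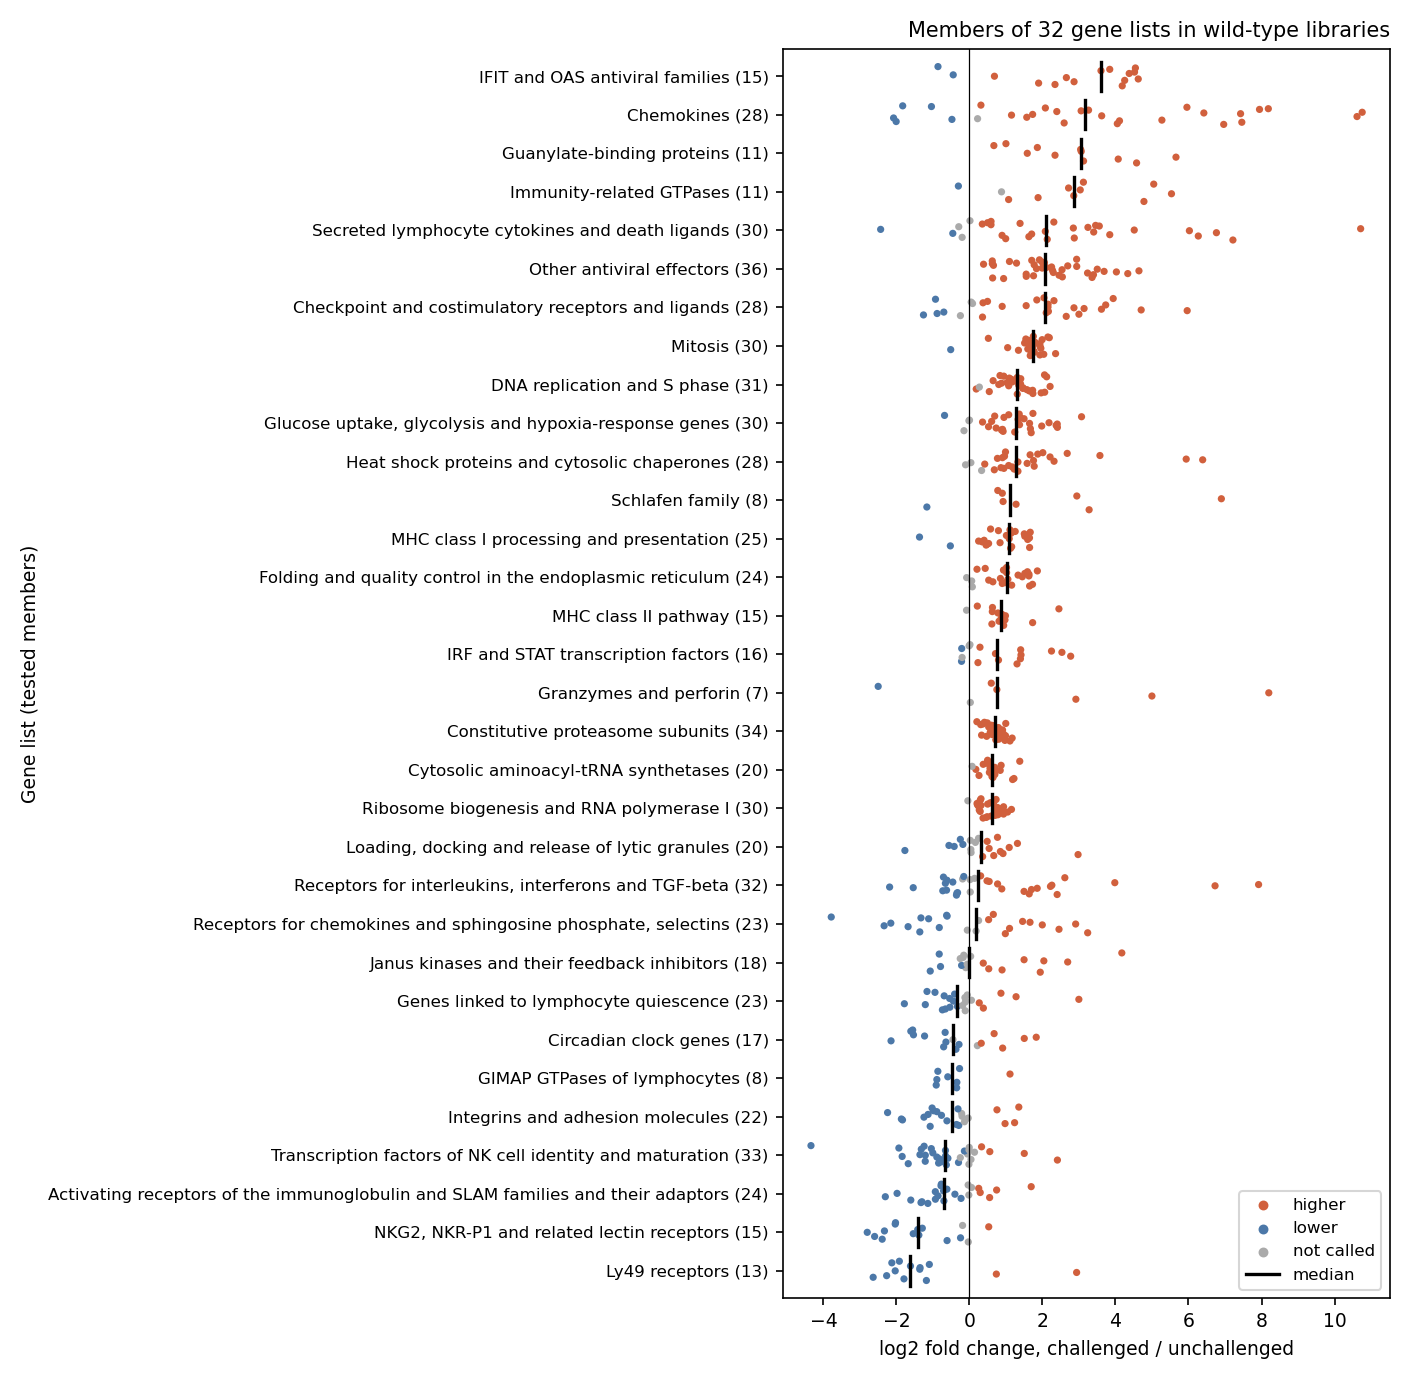
Each point is a tested gene placed by its log2 fold change on the x axis within 1 of 32 gene lists on the y axis, orange if called higher, blue if called lower and grey if not called, with a black line at the list's median. Interferon families, chaperones and cell cycle genes lie to the right, and Ly49 (median -1.61) and lectin receptors (median -1.42) to the left.

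Cell cycle genes rose together. Top2a, the topoisomerase of dividing cells, was at 114, 107 and 83.1 CPM and 499.6, 431 and 457 CPM, and Mki67 rose from 214 ± 27.6 to 648 ± 56.4 CPM. Of 31 replication genes 30 rose (median 1.31), led by Mcm10 (2.21) and Rrm2 (2.12), and of 30 mitosis genes 29 rose (median 1.75), led by Bub1 (2.36) and Tpx2 (2.15). Cdc25b, a phosphatase that starts mitosis, was the mitosis gene that fell (-0.51 ± 0.07). Promoters of mitosis genes held the CCAAT box in 19 of 24 windows, against 40% of all windows, and the cell cycle homology region TTTGAA in 10 of 24, against 13.8%.

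Brakes on the cycle moved both ways. Cdkn1a, encoding p21, was at 5.02, 5.52 and 4.15 CPM and 82.7, 104 and 97.95 CPM (log2 4.27 ± 0.16), and Gadd45b rose from 16.2 ± 1.47 to 122 ± 13.5 CPM. Cdkn1b, p27, fell from 175 ± 11.6 to 111 ± 11.1 CPM, and Cdkn2d changed by -0.54. The p53 target list that includes Cdkn1a was mixed, with 11 higher and 5 lower of 20: the death receptor Fas rose from 5.62 ± 1.88 to 40.8 ± 4.25 CPM, and Bbc3, PUMA, fell from 17.2 ± 2.31 to 8.43 ± 1.49 CPM. Genes linked to lymphocyte quiescence fell in 12 of 23 cases, with Klf3 (from 326 ± 19.8 to 94.7 ± 6.77 CPM), Klf2 (from 308 ± 34.9 to 133 ± 7.29 CPM) and Txnip (from 774 ± 49.1 to 403 ± 13.2 CPM), and rose in 5, with Tsc22d3, a glucocorticoid target, from 165 ± 2.62 to 299.6 ± 12.2 CPM.

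Clock genes and GIMAP GTPases mostly fell. Dbp, an output gene of the clock, was at 11.7, 10.7 and 12.4 CPM and 2.79, 2.24 and 2.82 CPM. Tef (-1.55), Per3 (-1.6) and Nr1d2 (-1.53) fell with it, while Per1 rose from 50.8 ± 4.02 to 81.3 ± 4.63 CPM and Bhlhe40 from 226 ± 37.4 to 425 ± 4.56 CPM. In total 10 of 17 fell and 5 rose. The labels do not give the hour of sampling, so the hour and the challenge cannot be told apart. Of 8 GIMAP genes, which support lymphocyte survival, 7 fell, Gimap3 from 756 ± 7.28 to 403 ± 15.7 CPM, and Gimap7 rose from 64.7 ± 2.16 to 139.8 ± 7.86 CPM.

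Glucose-handling genes rose in 26 of 30 cases (median 1.29). Ldha, the lactate-forming enzyme, was at 269, 285 and 268 CPM and 658, 719.6 and 753 CPM. Slc16a3, the lactate exporter, rose from 7.68 ± 1.09 to 64.7 ± 10.7 CPM, Pfkfb3, a glycolytic activator, from 66.4 ± 4.12 to 301 ± 6.44 CPM, and Gapdh from 487 ± 18.5 to 1551 ± 109.8 CPM. The glucose transporter genes went apart, Slc2a3 falling from 148 ± 5.504 to 92.3 ± 6.46 CPM and Slc2a1 rising from 53.5 ± 4.65 to 86.4 ± 5.78 CPM. Hexokinase isoforms rose by 0.52 (Hk1), 1.98 (Hk2) and 2.38 (Hk3, a myeloid isoform).

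Amino acid and nucleotide supply rose as well. Of 26 ATF4 target and supply genes 21 rose, with the cystine transporter Slc7a11 from 1.695 ± 0.179 to 45.8 ± 11.2 CPM, the serine-pathway enzyme Psat1 from 34.1 ± 1.44 to 94.96 ± 4.67 CPM and Mthfd2 from 15.3 ± 2.74 to 58.3 ± 2.75 CPM, and Slc6a9, a glycine transporter, fell (-0.77 ± 0.17). The response element TGATGNAA was in 6 of 24 windows of the list, against 2.55% of all. Among nucleotide and polyamine genes 18 of 24 rose. Upp1, uridine phosphorylase, was at 0.267, 0.547 and 0.6001 CPM and 62.8, 76.01 and 62.7 CPM (log2 7.12 ± 0.29), far above the list's median of 0.60. Odc1, the first enzyme of polyamine synthesis, rose from 141 ± 14.97 to 359.8 ± 9.59 CPM. Sterol genes were mixed, with 9 higher and 7 lower of 25, Idi1 at 1.13 and Mylip, which degrades the LDL receptor, at -1.24. Their median of 0.10 became -0.01 under upper-quartile scaling.

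Iron genes rose in 13 of 18 cases. The ferritin genes Fth1 and Ftl1 rose from 442 ± 8.35 to 1742 ± 95.1 CPM and from 678 ± 29.2 to 1867 ± 168 CPM, Hp, encoding haptoglobin, from 4.19 ± 0.509 to 80.5 ± 11.2 CPM, and Spic, the factor of red pulp macrophages that recycle haem, from 7.46 ± 0.709 to 44.3 ± 1.39 CPM. Hmox1, the haem-degrading enzyme, rose from 56.6 ± 4.54 to 261 ± 20.5 CPM. Slc30a1, a zinc exporter, fell (-0.62 ± 0.1), and the metallothionein genes Mt1 and Mt2 rose by 1.66 and 2.03.

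Sensors of microbes rose more often than they fell. Of 23 Toll-like receptor pathway genes 18 rose, Tlr2, for bacterial lipoproteins, from 6.08 ± 0.369 to 36.7 ± 2.07 CPM, Tlr13, for bacterial RNA, from 6.95 ± 0.458 to 35.7 ± 5.51 CPM, and Cd14 from 2.23 ± 0.616 to 110.1 ± 14.6 CPM. Of 26 cytosolic sensor genes 19 rose and 4 fell. Nod2, for cell wall fragments, rose from 3.204 ± 0.389 to 23.5 ± 1.06 CPM, Nlrp3 from 4.47 ± 0.371 to 45.8 ± 3.78 CPM and Mb21d1, encoding the DNA sensor cGAS, from 15.1 ± 1.21 to 38.5 ± 1.39 CPM. Nlrc3, an inhibitory member abundant in lymphocytes, fell from 238 ± 13.4 to 80.4 ± 3.18 CPM, and the flagellin sensor Naip5 from 110.4 ± 1.03 to 54.5 ± 3.07 CPM. Nod1 fell by 0.68 on the log2 scale, opposite to Nod2.

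Death genes rose in 12 of 15 cases. Casp4, the sensor caspase for lipopolysaccharide, rose from 26.5 ± 1.78 to 109 ± 10.4 CPM, Mlkl, the necroptosis effector, from 10.03 ± 1.02 to 44.6 ± 2.57 CPM, Ninj1, which ruptures membranes, from 19.9 ± 0.823 to 60.4 ± 4.77 CPM and Gsdmd from 84.7 ± 2.64 to 124 ± 11.9 CPM. In the BCL2 family 10 of 19 rose and 4 fell. Bcl2 itself fell from 215 ± 3.51 to 132 ± 3.31 CPM, Mcl1, which NK cells depend on, rose from 383 ± 27.9 to 521 ± 33.5 CPM, and Bcl2l14 from 1.62 ± 0.327 to 46.1 ± 3.04 CPM. The Bcl2a1 genes rose, such as Bcl2a1b (2.2), with reads that may be split uncertainly between copies.

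Antimicrobial enzymes known from macrophages and neutrophils rose in 20 of 23 cases. Nos2, inducible nitric oxide synthase, was at 0.214, 0.0498 and 0.2500 CPM and 61.2, 77.2 and 55.9 CPM. Acod1, the itaconate enzyme, rose from 1.002 ± 0.176 to 207 ± 30.8 CPM, Ptgs2 from 1.89 ± 0.445 to 34.99 ± 6.87 CPM and Ass1, which regenerates arginine, from 31.5 ± 2.52 to 166 ± 7.26 CPM. Alox15 fell (-0.94 ± 0.18). All 24 neutrophil granule genes that could be tested rose (median 3.88, or 3.63 with Stfa1, at 0 counts without challenge, at its lower bound): S100a9 from 19.4 ± 1.13 to 767 ± 58.8 CPM, Mmp8 from 1.01 ± 0.334 to 193 ± 26.8 CPM and Ly6g, the neutrophil surface marker, from 0.184 ± 0.124 to 6.505 ± 1.52 CPM. Mpo, a granule gene of precursors, rose from 3.13 ± 0.744 to 29.9 ± 1.72 CPM. In the monocyte and macrophage list 23 of 28 rose, Fcgr1 from 1.62 ± 0.518 to 24.8 ± 2.64 CPM and Clec4e from 5.35 ± 1.16 to 135 ± 25.2 CPM, whereas Ccr2 fell from 481 ± 43.5 to 188 ± 18.01 CPM, and the resident macrophage receptor genes Cd163 and Mrc1 changed by -0.86 and -0.5.

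Complement, serpin and matrix genes rose in the same libraries. C3 went from 26.1 ± 3.43 to 276 ± 21.01 CPM and Cfb, the alternative pathway protease, from 4.85 ± 0.171 to 246 ± 31.4 CPM, with 13 of 20 complement genes higher. Serpina3f rose from 15.4 ± 0.402 to 318 ± 5.77 CPM, with 14 of 17 serpin genes higher and near-copies of Serpina3 uncertain. Timp1 rose from 0.206 ± 0.1104 to 10.9 ± 0.305 CPM, and Mmp3 went from 1 count over the unchallenged group to 1745 (ratio 1588, counting interval 285 to 62778), with 20 of 25 matrix genes higher.

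Transcripts known from the pancreas were present in all 6 libraries and rose unevenly. All 6 Reg lectin genes that could be tested rose (median 6.73), with a sum of 6.801 to 7.902 CPM without challenge and 312 to 377 CPM after it. Reg3b was at 0.214, 0.348 and 0.1000 CPM and 111, 137 and 115 CPM, and Reg1, from 5.68 ± 0.236 to 72.5 ± 8.84 CPM, changed least. Acinar enzyme genes summed to 854 to 1087 CPM without challenge and 1688 to 2114 CPM after it, with 16 of 26 higher and 2 lower (median 0.91). Ctrb1, chymotrypsinogen B, rose from 117 ± 17.7 to 352 ± 61.00 CPM. Pnlip, pancreatic lipase, at 92.2 ± 10.5 and 101 ± 11.3 CPM, and Cela1 (91.03 ± 14.1 and 112 ± 16.4 CPM) were not called. The medians of the Reg and acinar lists thus lay far apart. Where these transcripts came from was not tested.

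Red-cell genes divided. Slc4a1, the anion exchanger of red cells, was at 144, 154 and 106 CPM and 2.06, 3.03 and 1.97 CPM, and haemoglobin Hbb-bs fell from 4704 ± 342 to 890.4 ± 164 CPM. Alas2, the haem enzyme of erythroid cells, fell from 183 ± 15.3 to 29.5 ± 4.68 CPM. Gata1, the factor of early erythroid cells, rose from 18.4 ± 3.57 to 29.3 ± 2.26 CPM (log2 0.67 ± 0.15), and Rhag rose from 8.93 ± 1.58 to 12.6 ± 0.504 CPM. Klf1 (14.8 ± 2.15 and 18.96 ± 1.91 CPM) and Car2 (176 ± 10.7 and 205 ± 11.1 CPM) were not called, although a fit of the wild-type libraries alone called both higher. In all 11 of 17 fell and 2 rose. Platelet genes fell in 13 of 15 cases (median -1.83), Tubb1 from 76.9 ± 11.1 to 13.3 ± 1.73 CPM, and Itgb3 rose from 124 ± 18.5 to 209.6 ± 17.2 CPM.

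**Figure D5:**
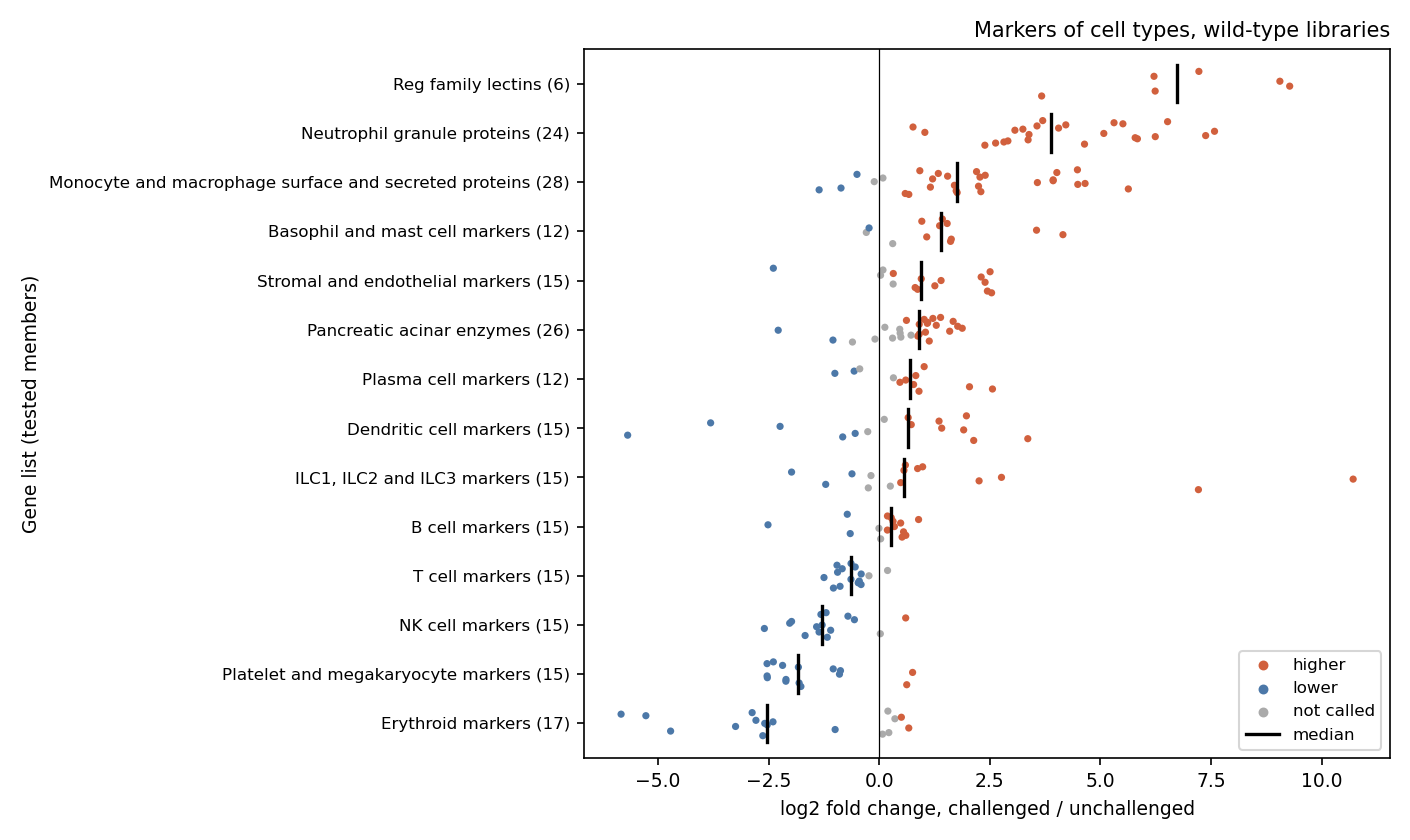
Each point is a tested marker gene, placed by its log2 fold change with challenge on the x axis and by cell type on the y axis, coloured as higher, lower or not called, with a black line at the list's median. Erythroid markers spread from -5.84 (Slc4a1) to 0.67 (Gata1), while all 24 neutrophil genes lie above 0.

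Dendritic and B cell genes also split within their lists. Siglech, of plasmacytoid dendritic cells, was at 18.4, 18.2 and 22.95 CPM and 1.23, 1.31 and 1.69 CPM, and Cd209a fell from 4.28 ± 0.894 to 0.0779 ± 0.0972 CPM. Flt3 (from 13.7 ± 0.2500 to 51.6 ± 3.26 CPM), Zbtb46 (from 11.8 ± 0.325 to 46.4 ± 3.14 CPM) and Batf3 (from 7.11 ± 0.563 to 31.3 ± 3.601 CPM), of conventional dendritic cells, rose. In the B cell list 10 of 15 rose and 3 fell, a count of 7 higher both under upper-quartile scaling and without unchallenged replicate 4. Ighm rose from 2721 ± 288 to 5044 ± 231 CPM, while Fcer2a, the CD23 gene of follicular B cells, fell from 110.5 ± 3.03 to 19.3 ± 1.24 CPM. Of 12 plasma cell genes 8 rose and 2 fell, namely Prdm1 (-1.0 ± 0.09) and Sdc1 (-0.57 ± 0.16). Igha rose from 36.8 ± 2.76 to 217 ± 38.7 CPM and Ighg1 from 16.3 ± 2.17 to 67.2 ± 8.45 CPM, and Mzb1, a chaperone of antibody-secreting cells, from 30.4 ± 3.15 to 53.98 ± 6.100 CPM.

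T cell markers fell in 13 of 15 cases (median -0.64), Trbc1 from 274 ± 15.1 to 142 ± 9.47 CPM and Cd3e from 37.4 ± 3.33 to 26.9 ± 2.67 CPM. Foxp3, of regulatory T cells, was not called (0.19 ± 0.17). Basophil and mast cell markers rose in 9 of 12 cases, the histamine enzyme Hdc, also made by neutrophil precursors, from 9.897 ± 1.204 to 177 ± 6.82 CPM and Mcpt8 from 3.61 ± 0.628 to 10.5 ± 0.7097 CPM. Of 15 innate lymphoid markers 9 rose and 3 fell, or 5 without challenged replicate 1. Their sum was 1096 to 1177 CPM without challenge and 589.8 to 615 CPM after it. Ncr1, which fell, made up most of that sum without challenge but not after it, so the lower sum does not stand for the other markers. Il1rl1, the IL-33 receptor, rose from 9.36 ± 0.646 to 44.8 ± 3.02 CPM, Il23r from 0.712 ± 0.391 to 4.88 ± 1.16 CPM, and Gata3 fell from 49.3 ± 1.22 to 21.3 ± 0.576 CPM. Il22 had 0 counts without challenge, and its rise was at least 197-fold. Stromal and endothelial markers rose in 11 of 15 cases, Cxcl12 from 1.15 ± 0.607 to 6.09 ± 0.835 CPM and Sparc from 3.41 ± 0.364 to 19.4 ± 3.03 CPM. Of 13 mitochondrially encoded transcripts, edgeR and DESeq2 each called 0, and 0 passed an unadjusted p of 0.05. Leaving out unchallenged replicate 3 gave 1 higher call, and leaving out challenged replicate 1 gave 1 lower call.

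Haemoglobin genes lost the most on the CPM scale, which is not corrected for gene length, and B2m and Hsp90ab1 were among the 5 leading gains. Other genes with large movements are described here. Hspa8 gained from 1073 ± 34.8 to 4962 ± 232 CPM, Rnf213, an interferon-induced ubiquitin ligase, from 525 ± 21.1 to 2918 ± 115 CPM, and Gvin1, a giant GTPase, from 1145 ± 66.2 to 2409 ± 294 CPM. Ahnak, a giant scaffold protein gene, lost from 2868 ± 149 to 625 ± 20.5 CPM, Macf1, a cytoskeletal linker, from 2352 ± 42.7 to 1022 ± 21.1 CPM, and Ptprc, encoding CD45, from 3367 ± 227 to 1909.8 ± 162 CPM. Falls by ratio were ranked only among genes above a minimum level in the higher group, without clone-named genes. The largest in that ranking included Cpne7 (from 92.5 ± 3.63 to 4.48 ± 0.737 CPM), Phactr3 (-4.11), Cmya5 (-3.82), Arl4d (from 146 ± 12.7 to 10.8 ± 0.495 CPM), Ifitm10 (-3.48 ± 0.13) and Mcam, an adhesion molecule (from 92.8 ± 7.66 to 8.78 ± 1.01 CPM). Ifitm10 thus went against Ifitm1 (3.24), Ifitm2 (2.3) and Ifitm3, whose rises are given above.

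The same contrast was available in Mirc11-/- libraries, and 5876 of 16694 genes (35.2%) were called for a difference between the responses of the genotypes. Isg15 rose by 4.64 ± 0.12 in wild-type and by 2.02 in knockout libraries, a difference of 2.63 ± 0.15. Its mean in knockout libraries was 28.0 CPM without challenge, above the wild-type level, and 114 CPM after it, below the wild-type level. The difference thus holds unlike unchallenged levels as well as unlike challenged ones. S1pr5 fell by 3.78 on the log2 scale in wild-type, against -0.76 in knockout libraries. Hspa1b showed no called difference (0.10 ± 0.34, adjusted p = 0.852). Sex-linked transcripts differed between knockout groups and within unchallenged wild-type, so these differences and sex cannot be told apart.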

How the data were processed

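Gene counts were deposited as 1 table of 12 libraries, with reads handled by the authors on GRCm38. The tools listed in the submitters' processing notes are RSEM 1.3.0, Bowtie2 2.2.8, Trim Galore 0.4.1 and bcl2fastq. RSEM gives estimated counts, whereas the deposited counts were whole numbers, and a rounding step by the authors is not recorded in the labels. Reads of near-copies, and of overlapping or antisense genes, may be split uncertainly, and strand-specific counting is not recorded.

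All 12 libraries in 4 groups were fitted in edgeR 4.0.16 (limma 3.58.1, R 4.3.3). Genes passed filterByExpr, sizes were TMM-scaled, and a robust quasi-likelihood F test was adjusted over 16694 tested genes with the Benjamini-Hochberg method at 0.05. Standard errors are the absolute log2 fold change divided by the square root of F. Folds against a group at 0 counts are bounds, set by a floor of 3 counts summed over its libraries (0.0510 CPM unchallenged, 0.0464 CPM challenged). Intervals and floors cover counting error only. Alternatives covered scaling, filters, robustness, wild-type libraries alone, replicate blocks, each wild-type replicate left out, and DESeq2 1.42.0. Figures and summaries used Python 3.11.15 (pandas 2.3.3, numpy 2.4.6, scipy 1.17.1, matplotlib 3.10.9). Promoter windows came from RefSeq (GRCm38.p6), with a window for 11133 of 16681 tested symbols.

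The members and the 68 gene lists (1299 genes, 1261 tested) were chosen with earlier results of these data known, so list counts are descriptions. Named genes were drawn from all tested members of lists of at most 16 and, for longer lists, the 4 called members with the largest change in each direction, the most abundant member and up to 2 with the smallest change. Added to these were the 10 largest gains and losses in CPM, the 12 largest changes in each direction, the NK markers, sex-linked genes, genes compared between genotypes and genes with printed promoters. The 4 called members of longer lists and the 12 largest changes were ranked among genes above a minimum level in the higher group. Chosen after their values were seen were Alas2, Ass1, Bag3, C3, Car2, Ccl17, Ccl22, Cct2, Cct3, Cd69, Cela1, Ctla4, Cxcl1, Cxcr5, Ebi3, Fcgr1, Havcr2, Hk1, Hk2, Hmox1, Hspa5, Id2, Ifitm1, Ifitm2, Ifnar1, Ifnar2, Ifng, Ifngr2, Il12b, Il12rb1, Il12rb2, Il15ra, Il17a, Il17f, Il2, Il27, Il2rg, Jak2, Jak3, Klf1, Lag3, Ldha, Ly6g, Mb21d1, Mpo, Mt1, Mt2, Pfkfb3, Psat1, Psmb9, Ptgs2, S1pr1, Serpinb9, Slc2a1, Socs3, Stfa1, Tap1, Tcf7, Tnfrsf9, Tyrobp and Zeb2. No 2 libraries of a group differed by less than sampling noise, and no value column went unused. Some results are not reported here.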

Additional observations from a re-analysis of the deposited data

Results flagged for a closer look

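A fixed set of 12 genes was compared for a difference between the wild-type and the Mirc11-/- response to challenge. An interaction term in edgeR was used with adjustment over all 16694 genes, and 10 passed an adjusted p of 0.05. Such a difference can come from the unchallenged as well as the challenged levels. Over all tested genes, 5876 (35.2%) passed. The set was chosen with earlier results of these data known, so its count is a description. Knockout libraries, 3 challenged and 3 unchallenged, differed in sex-linked transcripts, so these differences and sex cannot be told apart.

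The interferon targets of this set rose further in wild-type than in knockout libraries. The Cxcl10 response, of a chemokine that attracts lymphocytes, was 6.42 against 3.84 (difference 2.58 ± 0.18, adjusted p = 6.12e-08), and that of Isg15 was larger by 2.63 ± 0.15, of Gbp2 by 1.45 ± 0.11 and of Irf1 by 0.96 ± 0.09. Nos2 differed by 2.69 ± 0.75 (adjusted p = 0.0131), Gzmc by 2.28 ± 0.31 and the replication helicase gene Mcm5 by 0.76 ± 0.14. Those genes of the set that fell did so further in wild-type libraries: the difference was -3.02 ± 0.14 for S1pr5, -0.57 ± 0.14 for Klra7 and -0.52 ± 0.09 for Gimap6. Neither Reg3b (-1.16, adjusted p = 0.414) nor Hspa1b (0.10, adjusted p = 0.852) was called.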

How the results depend on the processing

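In all settings the counts of calls stayed within 1.5 times the reported 5411 higher and 5166 lower. Leaving out each wild-type replicate in turn gave 5063 to 5275 higher and 4706 to 4852 lower. DESeq2 gave 5306 and 4999, and upper-quartile scaling 4634 and 6184, where the share of calls that were higher went from 51.2% to 42.8% and the median of all genes shifted by -0.107. With library totals alone the shift was -0.104.

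A fit with a replicate block gave 4997 higher and 4717 lower calls by the number in the short name, and 5298 and 5041 by the number at the end of the title. The numbers share no origin in the labels, and the deviations of same-numbered libraries correlated at 0.0456 and 0.204 by short name and at 0.196, -0.0994 and 0.0437 by title, and not every library correlated best with its own number, so the block is no pairing. Under the short-name block the acinar enzyme count fell from 16 to 10.

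Of 320 genes named, 16 changed call or direction in at least 1 setting. Signs turned for genes without a call: Gzma (-0.0818 under upper-quartile scaling, -0.0780 with totals, -0.0249 to 0.102 over the left-out replicates), Hsf1 (-0.0671, -0.0632, and -0.0165 to 0.0877), Id2 (-0.0639, -0.0606, and -0.0289 to 0.109) and Pnlip (-0.0041 with the short-name block). Eif2s3y, called lower, ran from -8.86 to 4.06 over the left-out replicates, the last without unchallenged replicate 4. Rps6-ps4, with counts in challenged replicate 1 alone, ran from 0 without that library to 14.54 over the left-out replicates in edgeR and reached 29.84 in DESeq2, fitted values that are no bounds, and DESeq2 and a fit without robust estimation called it. Counts near the floor limit the calls of low genes: the median standard error was 0.464 under 1 CPM.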

Other observations

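Several signalling genes had 0 counts in the unchallenged libraries and were detected in every challenged one. Prok2, encoding a secreted peptide, was at 0 counts in unchallenged replicates 2, 3 and 4 and at 1.78, 3.18 and 1.83 CPM after challenge, at least 44.4-fold higher. Ceacam10, of the carcinoembryonic antigen family, reached 2.06, 1.73 and 1.92 CPM from 0 counts, at least 37.3-fold higher. Calca, the calcitonin and CGRP gene, reached 0.913, 1.68 and 1.31 CPM, at least 25.5-fold higher, and Edn1, the endothelin gene, 1.005, 1.214 and 0.751 CPM, at least 19.4-fold higher. These 4 genes were chosen after their values were seen. All 4 were called higher. They were chosen for 0 counts without challenge and counts in every challenged library, so the lack of overlap follows from the choice. That choice also favours a call, so neither the lack of overlap nor the calls are added support.

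The ribosomal pseudogene Rps6-ps4 was at 283 CPM in challenged replicate 1 and at 0 in the other wild-type libraries, and it was not called by edgeR's robust test, although DESeq2 called it. Reads that it shares with Rps6 were not examined here.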
